A study of Mus musculus with 6 samples.

Results

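The mouse mitochondrial genome is a small circle of DNA inside the mitochondrion that carries 37 genes, and their RNA was compared here between PGAM5 knockdown and DRP1 knockdown macrophages. The members are all genes whose symbol begins with mt- in the GENCODE M21 annotation of the mouse build mm10. All 37 lie on chromosome M, and all 37 were found among the 54532 gene identifiers measured. They comprise 13 protein genes, 2 ribosomal RNA (rRNA) genes and 22 transfer RNA (tRNA) genes.

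The cells were an immortalised line of mouse bone marrow-derived macrophages (iBMDM) treated with interleukin-4 (IL-4), a cytokine that drives an anti-inflammatory state, at 10 ng/ml for 24 h. In the PGAM5 knockdown group, 3 libraries came from cells with a short hairpin RNA against Pgam5, which encodes a protein phosphatase of mitochondria. In the DRP1 knockdown group, 3 libraries came from cells with a short hairpin RNA against Dnm1l, which encodes DRP1, the GTPase that divides mitochondria. Both groups therefore share the line, the IL-4 and a hairpin, no library without these was analysed here, and a difference between the groups does not tell which knockdown moved the RNA.

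Transcription of mitochondrial DNA starts in a non-coding control region and runs along both strands, giving long precursors that cover many genes. The heavy-strand precursor holds both rRNAs, most mRNAs and most tRNAs, and the light-strand precursor holds mt-Nd6 and the remaining tRNAs. The tRNAs lie between the other genes like punctuation and are cut out, which frees the rRNAs and mRNAs, and most of the mRNAs then receive a short poly-A tail. In human cells the ND6 mRNA is known to lack a stable tail. The mRNAs encode subunits of the respiratory chain and of ATP synthase: complex I (NADH dehydrogenase), complex III (cytochrome bc1), complex IV (cytochrome c oxidase) and complex V (ATP synthase). All other proteins of the mitochondrion, RNA polymerase included, come from nuclear genes.

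The libraries were made from RNA captured by its poly-A tail, so the levels below are those of RNA that the beads retained. The annotated 3′ ends of the 13 protein genes are shown for their stop codons. An annotated end need not be where a tail is added, since mt-Atp8 and mt-Nd4l end inside the gene that follows. Sequences are from the GENCODE M21 transcripts (mm10), written 5′ to 3′ along each gene's own strand, and capitals mark the stop codon or the part of it that the DNA encodes.
mt-Nd1 (chrM:3693-3707, plus strand): ccaccatacataTAG
mt-Nd2 (chrM:4937-4951, plus strand): caactaattaccTAG
mt-Co1 (chrM:6858-6872, plus strand): gtaaaagtaaaaTAA
mt-Co2 (chrM:7682-7696, plus strand): gcttcaataattTAA
mt-Atp8 (chrM:7955-7969, plus strand): ttaccccaacaaTAA
mt-Atp6 (chrM:8593-8607, plus strand): catgataatacaTAA
mt-Co3 (chrM:9376-9390, plus strand): attgatgaggatctT
mt-Nd3 (chrM:9792-9806, plus strand): gaatgaacagagTAA
mt-Nd4l (chrM:10159-10173, plus strand): ctactacaatgcTAA
mt-Nd4 (chrM:11530-11544, plus strand): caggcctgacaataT
mt-Nd5 (chrM:13551-13565, plus strand): attaatctcgagTAA
mt-Nd6 (chrM:13552-13566, minus strand): attactcgagatTAA
mt-Cytb (chrM:15274-15288, plus strand): taaaattatatccaT

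In 3 of the 13 (mt-Co3, mt-Nd4 and mt-Cytb) the annotated gene ends on the first base of a stop codon, and the tail is known to supply the rest. The other 10 carry the whole codon in the annotation, although the last 2 bases of mt-Nd1 and of mt-Nd2 also belong to the tRNA gene that follows. Some genes share bases. The largest overlap joins mt-Atp8 and mt-Atp6, which are read in different frames over 43 bases of the plus strand.
mt-Atp8 and mt-Atp6 (chrM:7927-7969, plus strand): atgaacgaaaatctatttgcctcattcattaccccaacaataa

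mt-Nd4l and mt-Nd4 share 7 bases (chrM:10167-10173), and mt-Nd5 and mt-Nd6, which lie on opposite strands, share 14 bases (chrM:13552-13565). Reads from such stretches can be counted for either gene, for both or for none.

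The totals of the libraries, inferred from the deposited values, were 16111281 to 21933548 reads. Pgam5 stood at 4.91, 5.21 and 4.60 FPKM (fragments per kilobase, relative to the total of the library) in PGAM5 knockdown libraries 1 to 3, against 17.3, 17.1 and 17.2 FPKM in DRP1 knockdown libraries 1 to 3, and Dnm1l at 17.2, 18.7 and 17.7 FPKM in PGAM5 knockdown, against 8.18, 7.42 and 7.12 FPKM in DRP1 knockdown, so every library matched its label. All 7 macrophage markers were present, with a summed level of 2121 to 2230 FPKM in PGAM5 knockdown and 3094 to 3107 FPKM in DRP1 knockdown. Among the markers of other cell types, the B cell marker Ighm averaged 24.7 FPKM over the 6 libraries, the B cell marker Ms4a1 was at 0, and the summed T cell, neutrophil, fibroblast, epithelial and erythroid lists reached at most 0.151 FPKM in any PGAM5 knockdown library and 0.179 FPKM in any DRP1 knockdown library. PGAM5 knockdown library 3 stood apart from its group: the chi-square of reads per gene was 5.09 to 7.15 with libraries 1 and 2, against 2.51 to 3.04 for the other pairs within groups. The sum was lower through Lyz2, Cd68 and Csf1r, while the ranges of Adgre1, Spi1, Itgam and Ptprc overlapped between the groups. The lower macrophage sum and the distance of library 3 go along with the comparison below, and their part in it was not tested.

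RNA of the mitochondrial genome was lower in PGAM5 knockdown than in DRP1 knockdown. In the tests below, the log2 difference was negative for 2 of 2 rRNAs, 12 of 12 mRNAs and 5 of 9 tRNAs. For mt-Nd3, 1 of these mRNAs, the filter fixed the sign. The 4 mRNAs that did not pass were all low in level. Reads of all 37 genes made up 0.402%, 0.403% and 0.412% of the inferred totals of the PGAM5 knockdown libraries, against 0.531%, 0.554% and 0.547% of those of the DRP1 knockdown libraries. The summed level of the 13 mRNAs was 3023 ± 63.0 FPKM in PGAM5 knockdown and 4056 ± 93.3 FPKM in DRP1 knockdown (SD, n = 3 each), which is 25.5% lower (log2 ratio of means -0.42). The sums of the 2 groups did not overlap, and the exact two-sided permutation test gave p = 0.1, the smallest that 3 libraries against 3 can give. In these bulk samples fewer mitochondrial transcripts per cell and fewer cells with such transcripts cannot be told apart. More RNA from other genes cannot be told apart from these either, since FPKM is relative to the library's total.

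Gene by gene, the difference was tested with limma on log2(FPKM + 1) for the 10634 genes with a mean of at least 1 FPKM, with Benjamini-Hochberg adjustment over all of them and a threshold of 0.05 on the adjusted p. Of the 37 mitochondrial genes 23 were tested, of which 10 fell in PGAM5 knockdown, 1 rose and 12 did not pass; the remaining 14 were below the filter. The 10 that fell were 8 of the 12 mRNAs tested and 2 of 2 rRNAs, and the 1 that rose was 1 of the 9 tRNAs tested. mt-Nd3 passed the filter only through the DRP1 knockdown libraries and so had to differ; without it 9 of 22 members fell, 7 of the 11 mRNAs among them. Among all genes tested, 11.7% fell and 13.8% rose. The median log2 difference was -0.45 over the 12 mRNAs tested (-0.43 without mt-Nd3), -0.63 over the 2 rRNAs and -0.009 over the 9 tRNAs, beside 0.009 over all genes tested. All 3 PGAM5 knockdown libraries lay below all 3 DRP1 knockdown libraries for 10 of the 12 mRNAs (9 of 11 without mt-Nd3), 2 of the 2 rRNAs and 0 of the 9 tRNAs; this held for 20.5% of all genes tested. Of the mRNAs 0 rose (0 also at an unadjusted p under 0.05, and 0 with limma voom on recovered reads).

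**Figure D1:**
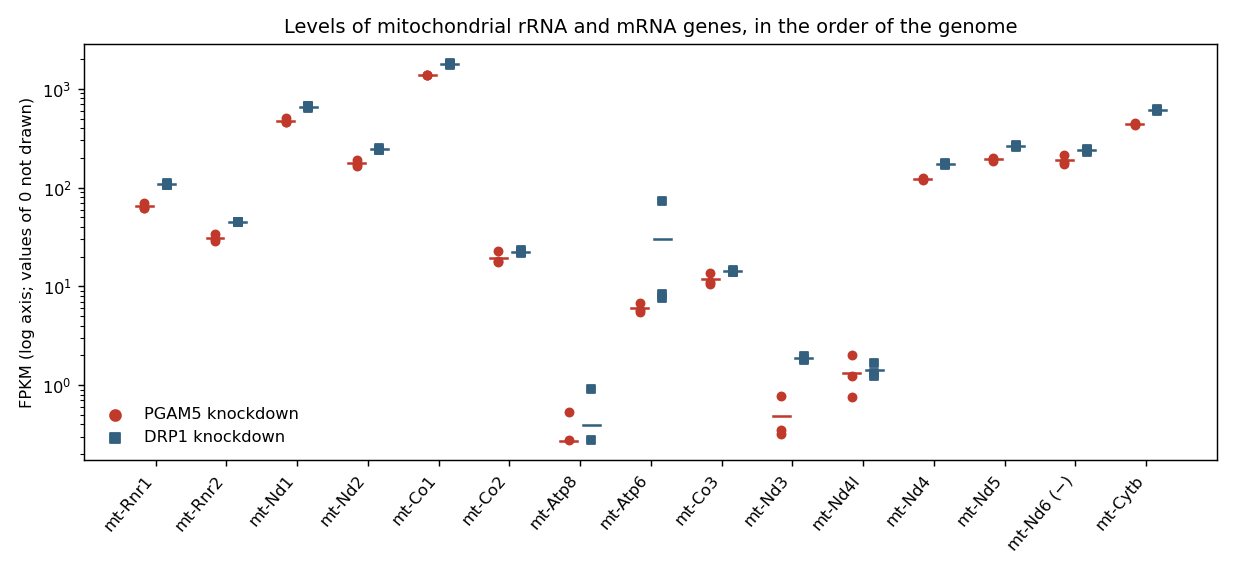
Levels of the 13 mRNAs and 2 rRNAs in each library, in FPKM on a log axis, with PGAM5 knockdown points left of DRP1 knockdown points for each gene and lines at the group means (n = 3 each); values of 0 are not drawn. mt-Co1 stands highest in both groups at 1383 and 1792 FPKM, mt-Atp8 is near or at 0, and 1 DRP1 knockdown library of mt-Atp6 lies far above the other 5.

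The rRNAs, which form the RNA cores of the small and large subunits of the mitochondrial ribosome, had the largest differences among the abundant members. mt-Rnr1 (12S rRNA, ENSMUSG00000064337, chrM:70-1024, plus strand) had 62.0, 62.2 and 69.1 FPKM in PGAM5 knockdown, against 106.5, 106.0 and 110.4 FPKM in DRP1 knockdown. Its highest PGAM5 knockdown library lay far below its lowest DRP1 knockdown library, and the mean was 40.1% lower (log2 difference -0.73, SE 0.046, limma adjusted p = 7.4e-05). mt-Rnr2 (16S rRNA, ENSMUSG00000064339, chrM:1094-2675, plus strand) had 29.0, 29.9 and 33.5 FPKM in PGAM5 knockdown, against 45.0, 45.1 and 45.0 FPKM in DRP1 knockdown. The DRP1 knockdown libraries were nearly equal while PGAM5 knockdown library 3 was the highest of its group, and the mean of PGAM5 knockdown was 0.684 of that of DRP1 knockdown (log2 difference -0.54, SE 0.052, limma adjusted p = 0.00052).

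As a sum, the rRNAs fell more than the mRNAs. Taken alone, mt-Rnr2 (log2 difference -0.54, SE 0.052) was close to the mRNA mt-Nd4 (-0.49, SE 0.033). The summed rRNA level was 95.2 ± 6.38 FPKM in PGAM5 knockdown and 152.7 ± 2.44 FPKM in DRP1 knockdown, which is 37.6% lower. Per unit of mRNA level, the rRNA level was 0.0306, 0.0307 and 0.0332 in PGAM5 knockdown, against 0.0384, 0.0366 and 0.0380 in DRP1 knockdown. The groups did not overlap in this ratio (log2 ratio of means -0.26, exact permutation p = 0.1, the smallest possible). The gap was wider for mt-Rnr1: its level over that of mt-Nd1, the next mRNA gene along the same strand, averaged 0.135 ± 0.0015 in PGAM5 knockdown and 0.163 ± 0.0056 in DRP1 knockdown, again without overlap (exact permutation p = 0.1). mt-Rnr2 over mt-Nd1 averaged 0.0647 ± 0.0014 in PGAM5 knockdown and 0.0683 ± 0.0018 in DRP1 knockdown, also without overlap (exact permutation p = 0.1). For mt-Rnr2 the groups nearly touched, with 0.0663 in the highest PGAM5 knockdown library and 0.0667 in the lowest DRP1 knockdown library. Mature mitochondrial rRNAs carry at most short tails, so in poly-A libraries these are levels of the part of the rRNA that was retained, and the share retained was not measured.

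Complex I, the entry point of electrons from NADH, has 7 mitochondrially encoded subunits, and 6 of their 7 mRNAs fell, or 5 of 6 without mt-Nd3. mt-Nd1 (ENSMUSG00000064341, chrM:2751-3707, plus strand) encodes a membrane subunit next to the quinone site and had 457, 465 and 506 FPKM in PGAM5 knockdown, against 640, 676 and 663 FPKM in DRP1 knockdown. The groups were far apart (log2 difference -0.47, SE 0.044, limma adjusted p = 0.00042). mt-Nd2 (ENSMUSG00000064345, chrM:3914-4951, plus strand), one of the antiporter-like subunits of the membrane arm, had 166, 173 and 189 FPKM in PGAM5 knockdown, against 243, 254 and 243 FPKM in DRP1 knockdown. Again no library crossed between the groups (log2 difference -0.49, SE 0.049, limma adjusted p = 0.00061).

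mt-Nd4 and mt-Nd5 encode the other antiporter-like subunits. mt-Nd4 (ENSMUSG00000064363, chrM:10167-11544, plus strand) had 123, 119 and 126 FPKM in PGAM5 knockdown, against 170, 178 and 172 FPKM in DRP1 knockdown. The ratio of means was 0.709 (log2 difference -0.49, SE 0.033, limma adjusted p = 9.9e-05). mt-Nd5 (ENSMUSG00000064367, chrM:11742-13565, plus strand) had 202, 197 and 185 FPKM in PGAM5 knockdown, against 262, 268 and 258 FPKM in DRP1 knockdown. Its ratio of means was 0.740 (log2 difference -0.43, SE 0.038, limma adjusted p = 0.0003), and unlike mt-Nd1 and mt-Nd2 its lowest PGAM5 knockdown value was in library 3.

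The small subunits mt-Nd3 and mt-Nd4l were measured on few reads. mt-Nd3 (ENSMUSG00000064360, chrM:9459-9806, plus strand) had 0.32, 0.35 and 0.78 FPKM in PGAM5 knockdown, against 1.96, 1.79 and 1.83 FPKM in DRP1 knockdown, on 2, 2 and 5 reads against 11, 11 and 14 reads. The groups did not overlap (log2 difference -0.96, SE 0.126, limma adjusted p = 0.0019), but, as stated above, the gene had to differ to be tested. mt-Nd4l (ENSMUSG00000065947, chrM:9877-10173, plus strand) had 0.76, 1.24 and 2.02 FPKM in PGAM5 knockdown, against 1.67, 1.33 and 1.23 FPKM in DRP1 knockdown. The groups overlapped (log2 difference -0.075, SE 0.189, limma adjusted p = 0.81), and its sign turned between 0.11 and -0.28 when libraries were left out in turn. The summed level of the 7 complex I mRNAs was 1162 ± 53.4 FPKM in PGAM5 knockdown and 1586 ± 34.8 FPKM in DRP1 knockdown (log2 ratio of means -0.45, exact permutation p = 0.1).

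Complex III has a single mitochondrially encoded subunit, cytochrome b, which carries haem groups. mt-Cytb (ENSMUSG00000064370, chrM:14145-15288, plus strand) had 428, 445 and 451 FPKM in PGAM5 knockdown, against 597, 625 and 614 FPKM in DRP1 knockdown. Both groups were tight and far apart, with a ratio of means of 0.721 (log2 difference -0.47, SE 0.032, limma adjusted p = 0.00011). As the last mRNA gene on the heavy-strand precursor it differed by about as much as mt-Nd1, the first (-0.47 for both).

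Complex IV, which passes electrons to oxygen, has 3 mitochondrially encoded subunits that form its core, and 1 of the 3 mRNAs fell. mt-Co1 (ENSMUSG00000064351, chrM:5328-6872, plus strand) was the most abundant member, with 1392, 1378 and 1378 FPKM in PGAM5 knockdown, against 1746, 1831 and 1798 FPKM in DRP1 knockdown. The PGAM5 knockdown libraries lay close together and below every DRP1 knockdown library (ratio of means 0.772, log2 difference -0.37, SE 0.029, limma adjusted p = 0.0002). mt-Co2 (ENSMUSG00000064354, chrM:7013-7696, plus strand), which receives electrons from cytochrome c, had 17.5, 17.9 and 22.6 FPKM in PGAM5 knockdown, against 23.3, 22.3 and 21.6 FPKM in DRP1 knockdown. Here PGAM5 knockdown library 3 lay inside the range of DRP1 knockdown and the difference did not pass (log2 difference -0.21, SE 0.091, limma adjusted p = 0.134). Without that library it was -0.32 and passed (limma adjusted p = 0.0030). With any other library left out it did not pass (limma adjusted p = 0.189 to 0.309). mt-Co3 (ENSMUSG00000064358, chrM:8607-9390, plus strand) had 10.5, 11.2 and 13.7 FPKM in PGAM5 knockdown, against 14.1, 14.0 and 14.8 FPKM in DRP1 knockdown. The groups did not overlap, yet the difference missed the threshold (log2 difference -0.27, SE 0.086, limma adjusted p = 0.061). It passed without PGAM5 knockdown library 3 (limma adjusted p = 0.0025), but not with any other library left out (limma adjusted p = 0.123 to 0.162). The complex IV sum, nearly all of it mt-Co1, was 1414 ± 6.42 FPKM in PGAM5 knockdown and 1828 ± 42.1 FPKM in DRP1 knockdown (log2 ratio of means -0.37, exact permutation p = 0.1).

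Complex V, which makes ATP, was the least well measured. mt-Atp8 (ENSMUSG00000064356, chrM:7766-7969, plus strand), a small subunit of the stator, had 1, 0 and 2 reads in PGAM5 knockdown, against 3, 1 and 0 reads in DRP1 knockdown, and was below the filter. mt-Atp6 (ENSMUSG00000064357, chrM:7927-8607, plus strand), part of the proton channel, had 5.54, 6.75 and 5.77 FPKM in PGAM5 knockdown, against 7.56, 8.39 and 73.8 FPKM in DRP1 knockdown. All PGAM5 knockdown libraries lay below all DRP1 knockdown libraries, but 1 DRP1 knockdown library stood far above the other 5, with 1102 reads where the others had 67 to 101. The log2 difference of -1.38 (SE 0.76, limma adjusted p = 0.23) therefore rested on DRP1 knockdown library 3, and without it was -0.36 (limma adjusted p = 0.041). The sum of the 13 mRNAs was little touched by it, since without mt-Atp6 it was 3017 ± 63.1 FPKM in PGAM5 knockdown and 4026 ± 88.0 FPKM in DRP1 knockdown (log2 ratio of means -0.42).

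**Figure D2:**
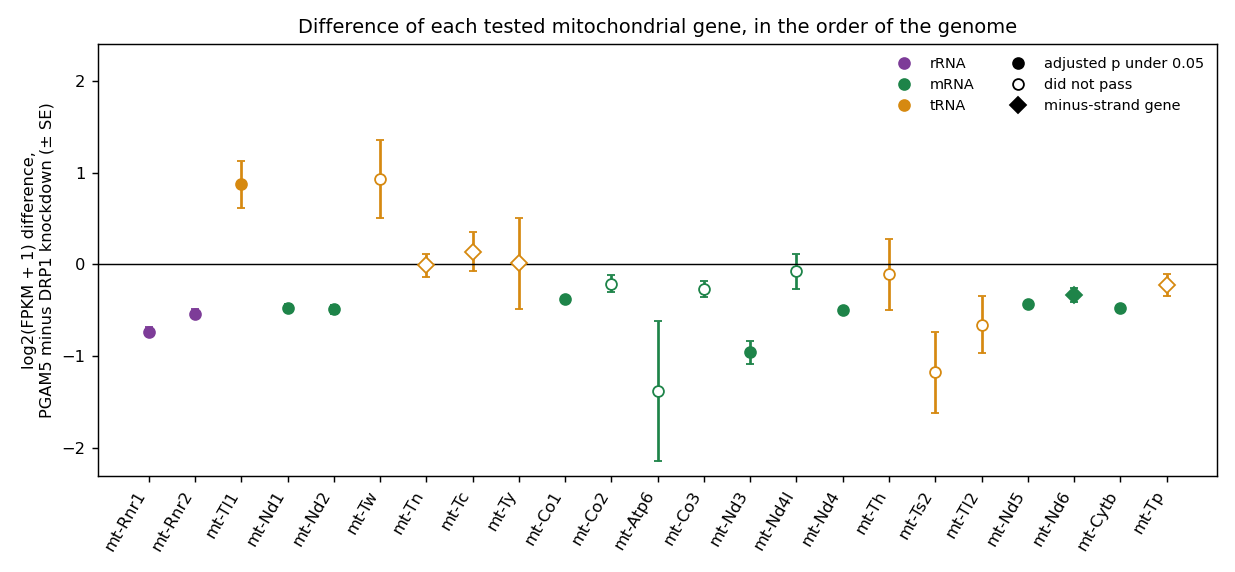
Log2 difference of each tested member in log2(FPKM + 1), PGAM5 knockdown minus DRP1 knockdown, with its standard error, in the order of the genes along the mitochondrial genome. mRNAs and rRNAs lie below 0, with 8 of 12 and 2 of 2 past the threshold, whereas the 9 tested tRNAs lie on both sides of 0 with wide errors.

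mt-Nd6, the only mRNA on the other strand, was also lower. It encodes a complex I subunit (ENSMUSG00000064368, chrM:13552-14070, minus strand) and had 175, 183 and 214 FPKM in PGAM5 knockdown, against 243, 247 and 230 FPKM in DRP1 knockdown. No library crossed, but the spread was wider than for its neighbours (log2 difference -0.33, SE 0.073, limma adjusted p = 0.015). The call was lost without the filter (limma adjusted p = 0.057) and without any one of PGAM5 knockdown library 2, DRP1 knockdown library 1 and DRP1 knockdown library 2 (limma adjusted p = 0.052, 0.053 and 0.057). The 12 mRNAs of the plus strand summed to 2833 ± 42.3 FPKM in PGAM5 knockdown and 3817 ± 94.8 FPKM in DRP1 knockdown (log2 ratio of means -0.43, exact permutation p = 0.1).

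Relative to mRNAs of the other strand, the level of mt-Nd6 overlapped between the groups. The exact permutation test of 3 libraries against 3 cannot give a p below 0.1, so it cannot decide whether the strands differed. Of the tRNA measures given below, minus-strand tRNA reads per 1000 mt-Cytb reads did not overlap between the groups, while mt-Tp reads per 1000 mt-Cytb reads did. mt-Nd6 over the sum of the other 12 mRNAs was 0.0672 ± 0.0063 in PGAM5 knockdown and 0.0628 ± 0.0031 in DRP1 knockdown, and the groups overlapped (log2 ratio of means 0.097, exact permutation p = 0.5). Against mt-Nd5, which meets it tail to tail, mt-Nd6 stood at 0.867, 0.929 and 1.16 in PGAM5 knockdown, against 0.927, 0.920 and 0.889 in DRP1 knockdown, with PGAM5 knockdown library 3 the highest of the 6 (exact permutation p = 0.7). The protocol names a directional and a non-directional library step without saying which was used. Reads from mt-Nd6 and from heavy-strand RNA that runs antisense to it cannot then be told apart.

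**Figure D3:**
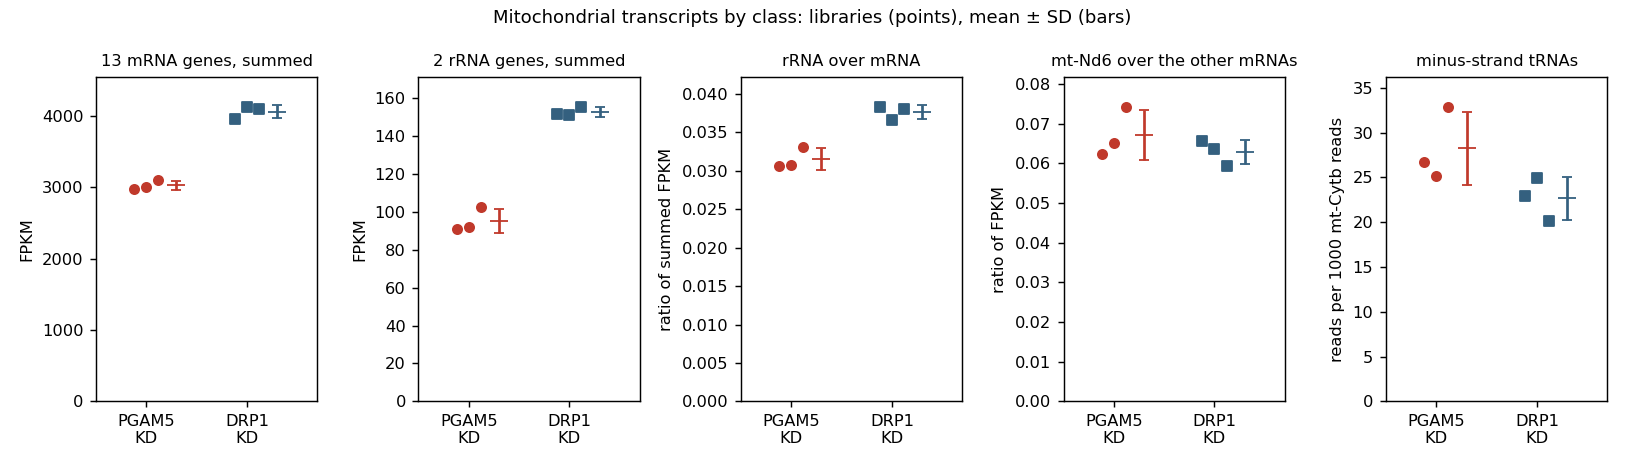
Summed FPKM of the mRNA genes and of the rRNA genes, the ratio of rRNA to mRNA, the ratio of mt-Nd6 to the other mRNAs, and minus-strand tRNA reads per 1000 mt-Cytb reads, with 1 point per library, PGAM5 knockdown left of DRP1 knockdown, and bars of mean ± SD (n = 3 each). Both sums and the rRNA ratio lie lower in all PGAM5 knockdown libraries, mt-Nd6 over the others overlaps, and the tRNA measure lies just higher in PGAM5 knockdown.

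The shares of the mRNAs in their sum were compared next. These are shares of listed levels. Nuclear copies, described below, make the listed levels of mt-Co1, mt-Nd4 and 5 other mRNAs uncertain. As a share of the summed mRNA level, mt-Co1 held 45.7% ± 1.12 in PGAM5 knockdown and 44.2% ± 0.21 in DRP1 knockdown, and was the only one of the 13 whose share was higher in all PGAM5 knockdown libraries. The shares of 3 others were lower in all PGAM5 knockdown libraries: mt-Nd3 with 0.0160% ± 0.0081 in PGAM5 knockdown and 0.0459% ± 0.0033 in DRP1 knockdown, mt-Nd4 with 4.07% ± 0.088 in PGAM5 knockdown and 4.28% ± 0.056 in DRP1 knockdown, and mt-Cytb with 14.6% ± 0.25 in PGAM5 knockdown and 15.1% ± 0.075 in DRP1 knockdown. For the other 9 the groups overlapped, mt-Atp6 included, with 0.199% ± 0.022 in PGAM5 knockdown and 0.733% ± 0.927 in DRP1 knockdown, where library 3 held the high value. None of the 13 could pass a correction, since each of the 4 had an exact permutation p of 0.1 (0.325 after Benjamini-Hochberg adjustment over 13). Complex I mRNAs held 38.4% ± 0.96 of the sum in PGAM5 knockdown and 39.1% ± 0.64 in DRP1 knockdown (exact permutation p = 0.3).

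The order of the levels was close to the same in both groups. mt-Co1, mt-Nd1 and mt-Cytb led, followed by mt-Nd5, mt-Nd2 and mt-Nd6, and then by mt-Nd4, mt-Rnr1 and mt-Rnr2. mt-Nd2 and mt-Nd6 exchanged places between the groups and did not differ beyond their spread within either, at 176 ± 11.8 and 191 ± 20.8 FPKM in PGAM5 knockdown and 247 ± 6.34 and 240 ± 8.99 FPKM in DRP1 knockdown. mt-Nd5 and mt-Nd6 also overlapped in PGAM5 knockdown. Below them, mt-Co2, mt-Co3, mt-Atp6, mt-Nd3, mt-Nd4l and mt-Atp8 had means of 0.27 to 19.3 FPKM in PGAM5 knockdown and 0.40 to 29.9 FPKM in DRP1 knockdown. The 3 subunits of complex IV, which assemble in equal numbers, were thus listed at levels from 11.8 to 1383 FPKM in PGAM5 knockdown and from 14.3 to 1792 FPKM in DRP1 knockdown.

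Of these 6 lowest genes, all but mt-Atp8 have nearly whole nuclear copies. Stretches of mitochondrial DNA inserted in nuclear chromosomes are common in mammals, and a read that fits both places equally can be lost from both genes or given to either. A search of the annotated transcripts for matches to the 37 genes, with a minimum identity of 97% and a minimum length of 100 bases, gave 8 pseudogenes. Of these, 7 lie side by side on the minus strand of chromosome 1 (24611535 to 24616197, 4663 bases) in the order of the mitochondrial genome. They match mt-Co2, mt-Atp6, mt-Co3 and mt-Nd4l over 99.0% to 99.9% of their length at 100% identity, mt-Nd3 over 99.1% at 99.7% identity, the first 63.6% of mt-Nd4 at 100% identity, and the last 31.3% of mt-Co1 at 99.8% identity. The eighth, Gm13340 on chromosome 2 (22588103 to 22589647, minus strand), matches the whole of mt-Co1 at 97.6% identity. Copies outside annotated transcripts were not searched.

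Single bases are what separates a gene from its copy, and 2 windows show how few there are. In each pair the capital marks the base that differs, counted from the first base of the mitochondrial gene. The difference T3C is the only one between mt-Nd3 and Gm28438 over 345 aligned bases.
mt-Nd3 (chrM:9459-9481, plus strand): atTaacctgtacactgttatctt
Gm28438 (chr1:24613097-24613119, minus strand): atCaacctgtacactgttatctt

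The difference A1066T is the only one between mt-Co1 and Gm29216 within their 483 aligned bases; the first 9 bases of the Gm29216 window lie before the aligned stretch.
mt-Co1 (chrM:6381-6413, plus strand): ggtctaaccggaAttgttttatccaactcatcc
Gm29216 (chr1:24616165-24616197, minus strand): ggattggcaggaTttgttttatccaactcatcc

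The share of a gene that a copy holds letter for letter was measured in windows of 100 bases. It was 99.5% for mt-Co2, 99.5% for mt-Atp6, 99.9% for mt-Co3, 97.6% for mt-Nd3 and 98.5% for mt-Nd4l, against 60.8% for mt-Nd4, 30.8% for mt-Co1, 3.19% for mt-Nd2 (a stretch in a transcript that is otherwise less alike) and 0% for mt-Nd1, mt-Nd5, mt-Nd6, mt-Cytb and both rRNAs. The 5 genes above 90% had means of 0.49 to 19.3 FPKM in PGAM5 knockdown and 1.41 to 29.9 FPKM in DRP1 knockdown. The 5 mRNAs with no match in the search (mt-Nd1, mt-Nd2, mt-Nd5, mt-Nd6 and mt-Cytb) had means of 176 to 476 FPKM in PGAM5 knockdown and 240 to 660 FPKM in DRP1 knockdown. mt-Atp8 had no match either and almost no reads, but the chromosome 1 copies of mt-Co2 and mt-Atp6 are 233 bases apart (chr1:24614652-24614884), the same distance as the matched ends of the genes themselves (chrM:7694-7926), a stretch that holds the part of mt-Atp8 before mt-Atp6. The levels of these 6 genes are therefore uncertain as levels of mitochondrial RNA. The partly copied mt-Nd4 and mt-Co1 share this uncertainty over their copied stretches.

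**Figure D4:**
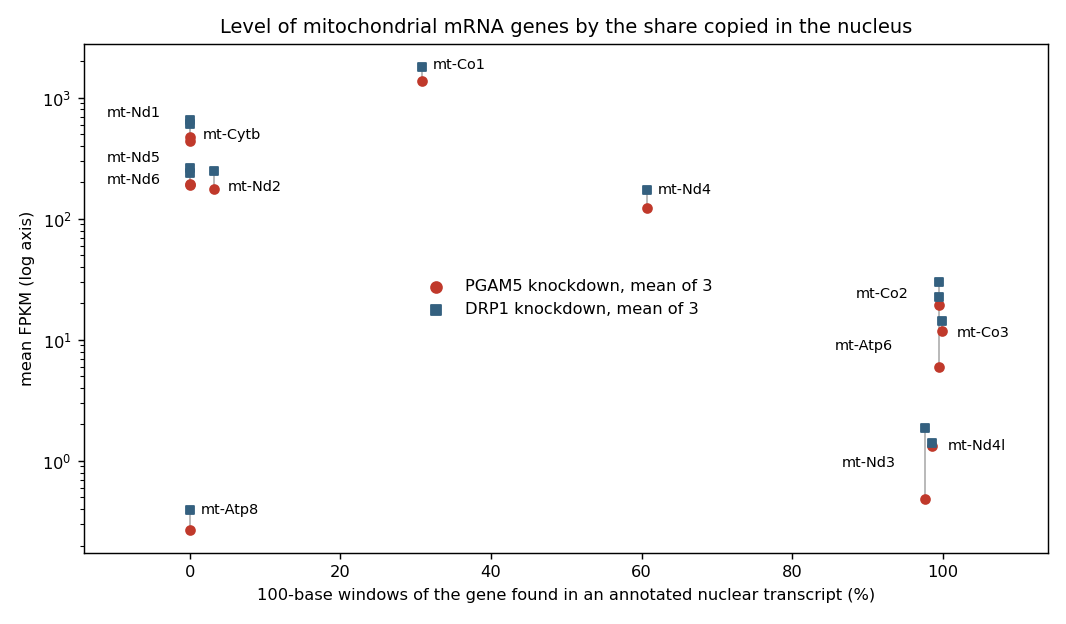
Mean level of each mRNA gene (FPKM on a log axis, PGAM5 knockdown and DRP1 knockdown as separate points, n = 3 each) against the share of its 100-base windows found letter for letter in an annotated nuclear transcript. The 5 genes above 90% lie below 30 FPKM in both groups, and the others except mt-Atp8 lie above it.

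The difference between the groups was as large without the copied genes. The 5 mRNAs with no match summed to 1478 ± 60.2 FPKM in PGAM5 knockdown and 2021 ± 44.1 FPKM in DRP1 knockdown (log2 ratio of means -0.45, exact permutation p = 0.1), and each of the 5 fell. Of the 5 copied genes, 4 did not pass, and the call of mt-Nd3 was bound to the filter.

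The copies themselves were listed at a few FPKM, and most were lower in PGAM5 knockdown too. Gm28661, the copy of mt-Co2, averaged 13.9 ± 1.502 FPKM in PGAM5 knockdown and 17.9 ± 1.92 FPKM in DRP1 knockdown (log2 difference -0.34, limma adjusted p = 0.036). Gm28437, the copy of mt-Co3, averaged 6.28 ± 0.23 FPKM in PGAM5 knockdown and 7.97 ± 0.21 FPKM in DRP1 knockdown (log2 difference -0.30, limma adjusted p = 0.0031). Gm28438, the copy of mt-Nd3, averaged 5.43 ± 1.90 FPKM in PGAM5 knockdown and 8.46 ± 0.32 FPKM in DRP1 knockdown (log2 difference -0.59, limma adjusted p = 0.047), above mt-Nd3 itself in both groups.

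Gm10222, the copy of mt-Nd4l, averaged 1.55 ± 0.11 FPKM in PGAM5 knockdown and 2.95 ± 0.84 FPKM in DRP1 knockdown (log2 difference -0.60, limma adjusted p = 0.025). Gm29216, the partial copy of mt-Co1, averaged 3.55 FPKM in PGAM5 knockdown and 4.24 FPKM in DRP1 knockdown, and its groups overlapped (log2 difference -0.20, limma adjusted p = 0.24). Gm28439, the partial copy of mt-Nd4, averaged 1.01 ± 0.22 FPKM in PGAM5 knockdown and 1.69 ± 0.16 FPKM in DRP1 knockdown (log2 difference -0.42, limma adjusted p = 0.021). Gm13340 was below the filter, at 0.48 ± 0.29 FPKM in PGAM5 knockdown and 0.30 ± 0.14 FPKM in DRP1 knockdown. The 7 copies on chromosome 1 together had 394, 361 and 477 reads in PGAM5 knockdown, against 531, 531 and 719 reads in DRP1 knockdown, and their summed level was 37.8 ± 4.34 FPKM in PGAM5 knockdown and 52.3 ± 2.43 FPKM in DRP1 knockdown (log2 ratio of means -0.47, exact permutation p = 0.1), close to the log2 ratio of -0.42 of the mitochondrial mRNAs.

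mt-Atp6 and its copy parted in 1 library. Gm10925, the copy of mt-Atp6, had 6.31, 4.97 and 6.85 FPKM in PGAM5 knockdown, against 8.70, 8.34 and 10.2 FPKM in DRP1 knockdown (log2 difference -0.52, limma adjusted p = 0.014). In DRP1 knockdown library 3 mt-Atp6 stood at 7.22 times its copy, whereas in the other 5 libraries the ratio was 0.84 to 1.36. The other copied genes showed no such excess in that library, as mt-Co2 had 21.6 FPKM and mt-Co3 14.8 FPKM there.

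**Figure D5:**
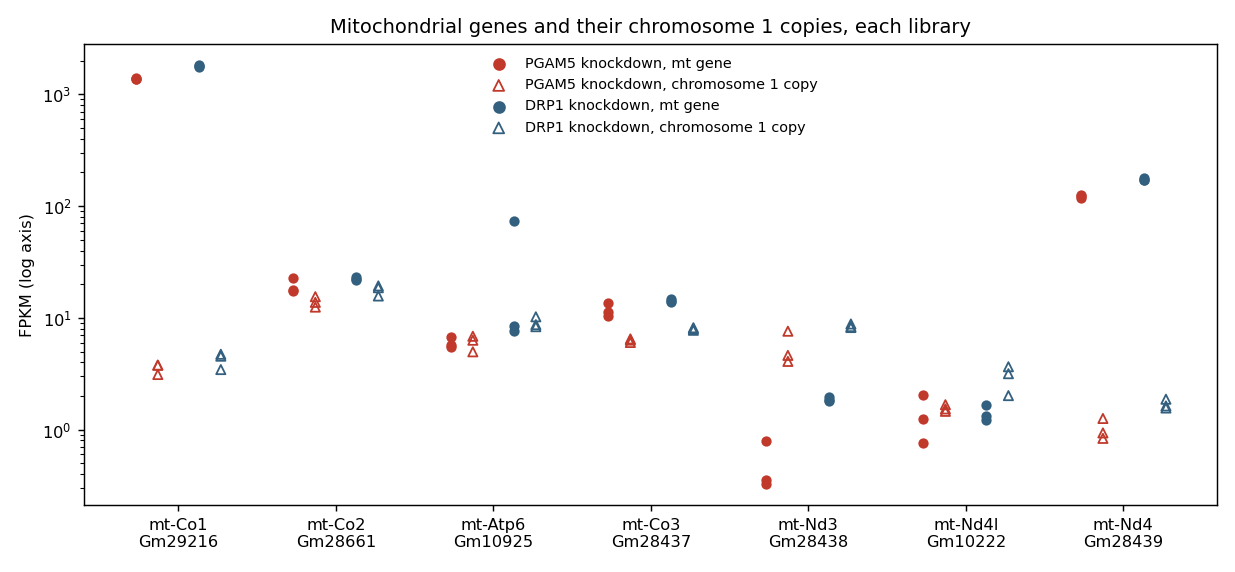
Levels of 7 mitochondrial genes (filled) and of their copies on chromosome 1 (open) in each library, in FPKM on a log axis, with PGAM5 knockdown left of DRP1 knockdown. The partly copied mt-Co1 and mt-Nd4 stand far above their copies, and mt-Atp6 reaches 73.8 FPKM in DRP1 knockdown library 3, where its copy has 10.2 FPKM.

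The tRNAs, which carry amino acids to the mitochondrial ribosome, are short and are mostly lost in poly-A libraries. Of the 22 genes 8 had no read in any library (mt-Tf, mt-Tv, mt-Tq, mt-Tm, mt-Ts1, mt-Td, mt-Tk and mt-Tg); 3 reads, the limit that a count of 0 allows, would have given 1.93 to 2.86 FPKM in these genes. Another 5 (mt-Ta, mt-Te, mt-Ti, mt-Tr and mt-Tt) had at most 3 reads in either group. The remaining 9 were tested, and 0 fell (1 at an unadjusted p under 0.05, 0 with limma voom) while 1 rose (1 at an unadjusted p under 0.05, 0 with limma voom). Among all genes tested 11.7% fell and 13.8% rose, so these counts out of 9 lie near the background.

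Most tRNA reads came from 3 genes of the minus strand, whose sequences are shown because they hold most of the tRNA signal. Capitals mark the anticodon.
mt-Tp (chrM:15356-15422, minus strand): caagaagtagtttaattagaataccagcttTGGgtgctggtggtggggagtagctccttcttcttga
mt-Tn (chrM:5089-5159, minus strand): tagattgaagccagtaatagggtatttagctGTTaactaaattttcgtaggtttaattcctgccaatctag
mt-Tc (chrM:5192-5257, minus strand): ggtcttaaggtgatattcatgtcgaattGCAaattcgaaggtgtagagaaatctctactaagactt

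mt-Tp, the tRNA for proline, borders the control region and had 158, 142 and 192 FPKM in PGAM5 knockdown, against 188, 214 and 169 FPKM in DRP1 knockdown, on 578 against 706 reads. The groups overlapped (log2 difference -0.22, SE 0.121, limma adjusted p = 0.22). mt-Tc, the tRNA for cysteine, had 19.6, 27.8 and 38.9 FPKM in PGAM5 knockdown, against 25.4, 27.4 and 22.8 FPKM in DRP1 knockdown, with PGAM5 knockdown libraries at both ends of the range (log2 difference 0.14, limma adjusted p = 0.68). mt-Tn, the tRNA for asparagine, had 19, 20 and 26 reads in PGAM5 knockdown, against 19, 26 and 24 reads in DRP1 knockdown (log2 difference -0.009, limma adjusted p = 0.97). mt-Ty, the fourth minus-strand tRNA tested, had 5 reads in PGAM5 knockdown against 4 reads in DRP1 knockdown.

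On the plus strand, mt-Tl1, a tRNA for leucine between mt-Rnr2 and mt-Nd1, had 6.75, 9.80 and 4.37 FPKM in PGAM5 knockdown, against 2.48, 3.02 and 4.26 FPKM in DRP1 knockdown, on 9, 12 and 6 reads against 3, 4 and 7 reads. It was the 1 member that rose (log2 difference 0.87, SE 0.255, limma adjusted p = 0.044), and its lowest PGAM5 knockdown library lay just above its highest DRP1 knockdown library. Such a separation upward held for 23% of all genes tested. The call was lost in 8 of 15 alternatives (adjusted p up to 0.154), 4 of which left out a single library, namely library 1 or library 2 of either group. The other plus-strand tRNAs tested did not pass: mt-Tw with 14 reads in PGAM5 knockdown against 6 reads in DRP1 knockdown (limma adjusted p = 0.15, and 0.042 without DRP1 knockdown library 2), mt-Th with 17 against 23 reads, mt-Ts2 with 10 against 27 reads (limma adjusted p = 0.093, and 0.033 without PGAM5 knockdown library 3) and mt-Tl2 with 22 against 44 reads (limma adjusted p = 0.16, and 0.014 without DRP1 knockdown library 2). With any library left out other than the one named for each, mt-Tw, mt-Ts2 and mt-Tl2 did not pass. In mt-Th, mt-Ts2 and mt-Tl2, which lie in a row before mt-Nd5, DRP1 knockdown library 3 had the most reads of the 6 libraries.

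Summed over the 8 minus-strand tRNA genes, reads per 1000000 library reads were 14.3 ± 2.34 in PGAM5 knockdown and 15.9 ± 1.85 in DRP1 knockdown (exact permutation p = 0.5), and over the 14 plus-strand tRNA genes 1.76 ± 0.31 in PGAM5 knockdown and 1.98 ± 0.81 in DRP1 knockdown (exact permutation p = 0.8). Relative to mt-Cytb, minus-strand tRNA reads were 26.7, 25.1 and 32.9 per 1000 mt-Cytb reads in PGAM5 knockdown, against 22.9, 24.9 and 20.1 per 1000 in DRP1 knockdown. The groups did not overlap, though libraries 2 of both groups lay close together (exact permutation p = 0.1, the smallest possible). The groups overlapped in minus-strand tRNA reads per 1000 mt-Nd6 reads, with 143.9 ± 9.03 in PGAM5 knockdown and 127.3 ± 10.6 in DRP1 knockdown (exact permutation p = 0.2), and in mt-Tp reads per 1000 mt-Cytb reads, with 21.7 ± 3.11 in PGAM5 knockdown and 18.2 ± 1.97 in DRP1 knockdown (exact permutation p = 0.2). Without a stated strand setting these reads may come from RNA of either strand.

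None of the tested nuclear genes for the synthesis and upkeep of mitochondrial RNA passed as lower in PGAM5 knockdown. Of 42 listed genes 40 were found and 37 tested. Of these, 6 rose (10 at an unadjusted p under 0.05 and 5 with limma voom). In the other direction 0 fell (0 at an unadjusted p under 0.05 and 0 with limma voom), and 31 did not pass. Among all genes tested 13.8% rose and 11.7% fell, so the count of 6 that rose lies near the background. The median log2 difference was 0.063 beside 0.009 over all genes. Hsd17b10, a subunit of the RNase P that cuts the 5′ ends of mitochondrial tRNAs, averaged 45.6 ± 2.19 FPKM in PGAM5 knockdown and 38.2 ± 1.55 FPKM in DRP1 knockdown (log2 difference 0.25, limma adjusted p = 0.0075). Grsf1, an RNA-binding protein of mitochondrial RNA granules, averaged 35.1 ± 0.26 FPKM in PGAM5 knockdown and 30.8 ± 1.49 FPKM in DRP1 knockdown (log2 difference 0.18, limma adjusted p = 0.015). Lonp1, a protease of the mitochondrial matrix that degrades the transcription factor TFAM among other proteins, averaged 145 ± 4.19 FPKM in PGAM5 knockdown and 130 ± 1.89 FPKM in DRP1 knockdown (log2 difference 0.16, limma adjusted p = 0.0099).

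Ddx28, a helicase of mitochondrial ribosome assembly, averaged 19.9 ± 0.59 FPKM in PGAM5 knockdown and 17.5 ± 0.18 FPKM in DRP1 knockdown (log2 difference 0.17, limma adjusted p = 0.011). Pnpt1, an exoribonuclease that degrades mitochondrial RNA, averaged 24.4 ± 0.81 FPKM in PGAM5 knockdown and 21.8 ± 0.57 FPKM in DRP1 knockdown (log2 difference 0.15, limma adjusted p = 0.023); the call was lost in 4 of 15 alternatives (adjusted p up to 0.088), among them leaving out library 1 of either group or DRP1 knockdown library 3. Mrpl12, a ribosomal protein reported to bind the mitochondrial RNA polymerase, averaged 47.8 ± 2.00 FPKM in PGAM5 knockdown and 43.5 ± 1.08 FPKM in DRP1 knockdown (log2 difference 0.13, limma adjusted p = 0.047), and this call was lost in 10 of 15 alternatives (adjusted p up to 0.147). Central genes of mitochondrial transcription did not pass: the polymerase gene Polrmt averaged 17.6 ± 1.18 FPKM in PGAM5 knockdown and 15.96 ± 0.26 FPKM in DRP1 knockdown (limma adjusted p = 0.097), and Tfam, which packages the DNA and starts transcription, averaged 15.1 ± 1.20 FPKM in PGAM5 knockdown and 14.7 ± 0.66 FPKM in DRP1 knockdown (limma adjusted p = 0.72). Lrpprc, which stabilises mitochondrial mRNAs, averaged 29.7 ± 0.57 FPKM in PGAM5 knockdown and 30.2 ± 0.37 FPKM in DRP1 knockdown (limma adjusted p = 0.62). Polrmt, Tfam and Lrpprc were chosen for their roles after their values were seen.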

How the data were processed

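The authors deposited 1 FPKM value per gene for each of the 6 libraries. HISAT2 2.0.5, featureCounts 1.5.0-p3 and the build mm10 are named in the submitters' processing notes. Not given in the sources used here are the annotation release, FPKM formula, strand setting and treatment of reads with several equal matches. RNA with a poly-A tail was captured on beads and copied from random hexamers, per the labels' protocols. FPKM is relative to each library's total.

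From the deposited FPKM, whole reads were recovered with GENCODE M21 exonic lengths: 96.1% of values above 0 lay within 0.02 of a whole read. Library reads are the totals that the FPKM values imply. The recovered reads summed to more than this in every library, for example 17030475 against 16111281 in DRP1 knockdown library 1. A detection limit is the FPKM that 3 reads would give, which allows for counting error alone. Of 54532 identifiers, 54495 were matched to GENCODE M21.

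Groups followed the sample titles, which do not say whether the numbers are cultures or hairpins, so the spread behind each p-value may be technical. Differences (PGAM5 knockdown minus DRP1 knockdown) were tested with limma 3.58.1 in R 4.3.3 on log2(FPKM + 1), which understates the change of low genes, over the 10634 genes that averaged 1 FPKM or more (two-sided, Benjamini-Hochberg, moderated by empirical Bayes with a trend). Sums, ratios and shares were put to exact two-sided permutation tests over libraries. Ratios between pairs of members and tRNA reads per 1000 mRNA reads were chosen after levels had been seen. Nuclear copies were searched with blastn 2.17.0. Alternatives were other pseudocounts, filters and scalings, no trend, voom on recovered reads (normalized by a trimmed mean of M-values), a replicate block and leaving out each library. The steps were tested on simulated data. All protein and rRNA genes are described one by one, tRNA genes if tested or among the 3 with the most reads, nuclear genes past the threshold, and copies by identity and level. The members and lists were chosen with earlier results of these data known. The value of 1 listed cell type marker is not reported here.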

Additional observations from a re-analysis of the deposited data

How the results depend on the processing

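Of the 13 comparisons of counts, sums and ratios, 0 reversed. The counts among them have no sign and so could not reverse. Genes of the mitochondrial genome that fell numbered 10, with a range of 9 to 13 when a library was left out in turn. The 1 that rose (mt-Tl1) became 0 without the filter, without the trend, with voom and with the replicate block, and was 0 to 1 when a library was left out. Of the 11 members called, 8 had the call in all 15 alternatives; mt-Nd3 had it in the 14 where it was tested and dropped out at a mean of at least 5 FPKM, and mt-Nd6 and mt-Tl1 lost it in some. With the replicate block mt-Ts2 gained the call (adjusted p = 0.0099), as did mt-Co3 (0.043). Without the genes covered at least 50% by a nuclear copy, the plus-strand mRNA sum had a log2 ratio of -0.47 in place of -0.43, and the complex V sum, then mt-Atp8 alone, -0.55 in place of -2.27; the complex IV sum has no value there, since no gene was left. The complex V ratio was -0.45 without DRP1 knockdown library 3, which held the high mt-Atp6, and ranged from -2.71 to -0.45 over libraries left out. The nuclear genes that rose numbered 6, and 4 to 7 when a library was left out. In samples with the same number, deviations from the group means correlated at 0.021, 0.031 and -0.00034, and 2 of 6 libraries correlated best with their own number. What samples of the same number have in common is not stated in the titles. With the replicate block 12 members fell and 0 rose.

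Depth limits the tRNAs, mt-Atp8, mt-Nd3 and mt-Nd4l, which rest on few reads, and strand and multiple matches limit mt-Nd6 and the copied genes.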

Other observations

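Within PGAM5 knockdown, library 3 departed from the other two unevenly along the mitochondrial genome. Against the mean of libraries 1 and 2 it was higher by 11.2% in mt-Rnr1, 13.8% in mt-Rnr2, 9.61% in mt-Nd1, 11.6% in mt-Nd2 and 19.7% in mt-Nd6, by 27.5% in mt-Co2 and 26.1% in mt-Co3, and, on few reads, by 132% in mt-Nd3 and 103% in mt-Nd4l. In mt-Co1, mt-Nd5 and mt-Atp6 it was lower than that mean, with -0.46%, -7.27% and -6.002%. These values are a description of 1 library, and their cause was not tested.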
